A study of Mus musculus with 4 samples.

Results

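The genes described here are 10 targets of the transcription factor NRF2 that act in glutathione, thioredoxin, quinone and heme metabolism: Hmox1, Nqo1, Gclm, Gclc, Srxn1, Txnrd1, Slc7a11, Prdx1, Sqstm1 and G6pdx. They were taken by name from a table of 55401 genes, where each had 1 row, and all 10 were among the 17260 genes with enough counts to test. RNA was sequenced from bone marrow-derived macrophages, cells grown from marrow with the growth factor M-CSF, of C57BL/6 mice aged 8 weeks. MC38 cells, from a colon carcinoma of mice, had shared all cultures for 24 h. The 2 control libraries, control 1 and control 3, came from Mettl3fl/fl mice, whose Mettl3 gene carries loxP sites. The 2 knockout libraries, knockout 1 and knockout 3, came from LysM-cre, Mettl3fl/fl mice, in which the lysozyme promoter drives Cre in myeloid cells. METTL3 is the methyltransferase that places N6-methyladenosine on mRNA. The study thus asks how macrophages without it differ after contact with tumour cells. The series calls the libraries biologic replicates. It does not say how many mice stand behind each, what the numbers 1 and 3 mark, or how macrophages were parted from MC38 cells.

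NRF2, encoded by Nfe2l2, is held in the cytoplasm by KEAP1, which hands it to a ubiquitin ligase built on CUL3. When reactive molecules modify KEAP1, NRF2 escapes, enters the nucleus, pairs with a small MAF protein and binds antioxidant response elements in front of its targets. BACH1 competes for the same elements and represses Hmox1 until heme removes it. In macrophages these targets limit oxidative damage during phagocytosis and inflammation, and they supply glutathione, reduced thioredoxin and NADPH.

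To show what such an element looks like in these genes, the promoter windows of RefSeq (GRCm38.p6, 250 bases before to 50 after a transcription start) were searched on both strands. The table held windows for 8 of the 10 genes. The core letters TGACNNNGC were found for 5 of the 8 genes (G6pdx, Gclm, Prdx1, Srxn1 and Txnrd1), against 13.99% of all 27025 genes with a window. Another form, TGANTCAGC, which does not fix the C of TGAC, was found for 2 of the 8, Prdx1 and Srxn1, against 1.37% of all genes. Both of those matches also overlap TGACTCA, the letters bound by AP-1, which 5.95% of all genes hold. The following 4 stretches lie before the start. Prdx1, Srxn1 and Gclm were chosen because they carry contrasts described further on, and G6pdx, which hardly varied, is set beside them. The match of Txnrd1, 84 bases before the start, is not shown. Capitals mark the match, and 3 of the 4 are read on the opposite strand, so that the capitals show the reverse complement of the letters searched.
Prdx1, chr4:116685416-116685524, plus strand: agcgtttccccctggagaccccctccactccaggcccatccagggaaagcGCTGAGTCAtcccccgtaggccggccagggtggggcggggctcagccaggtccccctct
Srxn1, chr2:152105429-152105523, plus strand: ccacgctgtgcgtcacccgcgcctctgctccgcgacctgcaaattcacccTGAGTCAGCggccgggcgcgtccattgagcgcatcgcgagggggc
Gclm, chr3:122245373-122245481, plus strand: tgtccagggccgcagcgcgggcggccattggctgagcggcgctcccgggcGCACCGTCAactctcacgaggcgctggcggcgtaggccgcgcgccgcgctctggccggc
G6pdx, chrX:74428881-74428987, minus strand: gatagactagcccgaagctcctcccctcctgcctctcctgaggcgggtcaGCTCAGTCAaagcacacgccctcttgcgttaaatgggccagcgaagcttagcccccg
The match lies 125 bases before the start in Prdx1, 37 in Srxn1, 126 in Gclm and 49 in G6pdx. The letters marked in Srxn1, TGAGTCAGC, fit TGANTCAGC but not TGACNNNGC. Srxn1 held its TGACNNNGC match after the start, 28 bases downstream. A match is a run of letters and not a measured binding site.

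Total counts ran from 55100415 in control 1 to 79209870 in knockout 3, and the same-numbered libraries resembled each other most (Pearson r of log2 CPM over genes 0.967 and 0.963, against 0.941 to 0.944 for the other 4 pairs). In number 1 Xist measured 0.589 (control) and 0.624 CPM (knockout), and in number 3 it measured 1351 and 1162 CPM. CPM is the count scaled to library size, with TMM factors. Ddx3y, on the Y chromosome, measured 72.1 and 89.1 CPM in number 1 but 0.307 and 0.139 CPM in number 3. The numbers thus separate a male from a female pattern, and sex, litter, day and any other property of the number cannot be told apart. Mettl3 measured 18.3 (control 1), 23.2 (control 3), 13.9 (knockout 1) and 19.6 CPM (knockout 3). A count over the whole gene does not test the deletion of some exons. All 9 macrophage markers were present in every library, with summed levels of 40727 to 55547 CPM. Much of that sum was Lyz2, with 22069 (control 1), 40813 (control 3), 25451 (knockout 1) and 25785 CPM (knockout 3). Of 9 epithelial carcinoma markers, 5, Epcam, Krt8, Krt18, Cldn4 and Esrp1, were at 0 in all 4 libraries, and the list summed to at most 1.33 CPM. Neutrophil and lymphocyte markers summed to at most 26.5 and 0.313 CPM. Erythroid markers summed to 8.30 (control 1), 5.31 (control 3), 2.62 (knockout 1) and 0.341 CPM (knockout 3). Of the 5 erythroid markers tested, 4 had both knockouts below both controls, beside 13.4% of all tested genes. Fibroblast markers summed to 442.7 and 349.9 CPM in the libraries numbered 1 and to 890.6 and 569.7 CPM in those numbered 3, led by Col1a1 and Col1a2. In such bulk samples, fewer cells of a type and less RNA per cell cannot be told apart.

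Together the 10 genes took 0.329% of all counts in control 1 and 0.327% in knockout 1, but 0.533% in control 3 and 0.532% in knockout 3. Levels of different genes are compared here as deposited FPKM, which is scaled by gene length. Prdx1 and Hmox1 led with means of 488.5 and 472.8 FPKM over the 4 libraries, and their ranges overlapped. Sqstm1 followed at 160.2 FPKM, overlapping G6pdx at 97.2, and G6pdx lay above all values of the next gene. Txnrd1 (35.7), Srxn1 (32.1), Gclm (22.01), Slc7a11 (13.9) and Gclc (8.82) formed a chain in which each overlapped the next. Nqo1 was lowest at 3.06 FPKM, with every value below those of Gclc. Spread over the libraries differed by gene. The highest value was 1.05 times the lowest for G6pdx and 1.24 times for Hmox1, but 5.36 times for Srxn1 and 5.51 times for Gclm.

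**Figure D1:**
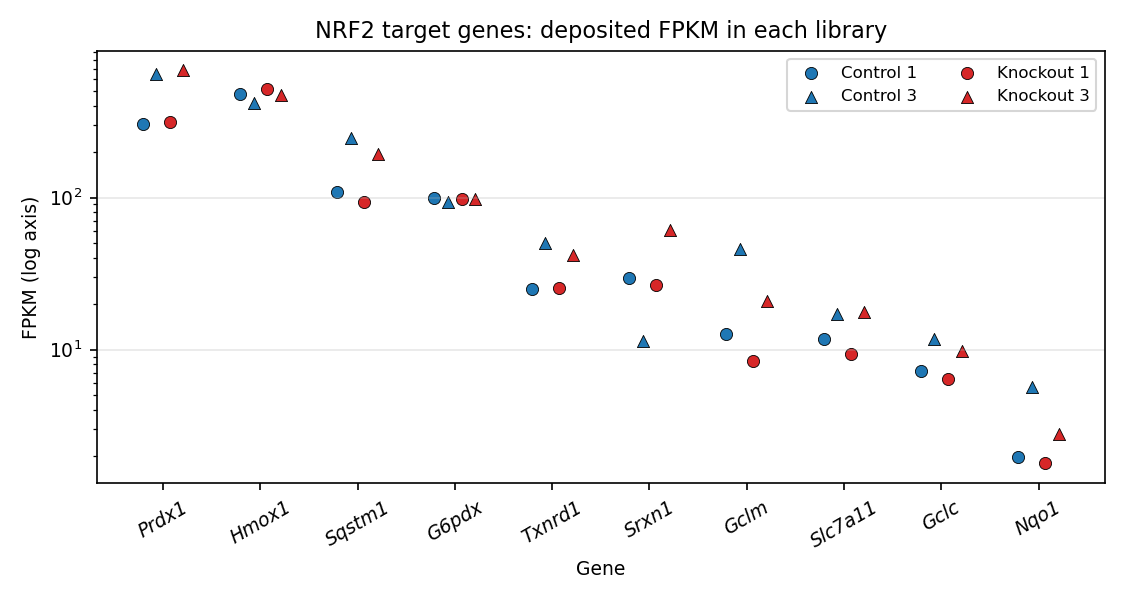
Deposited FPKM (log axis) of the 10 genes in each of the 4 libraries, ordered by mean level. Colour gives genotype and shape gives library number. For Prdx1, Sqstm1, Txnrd1, Gclm, Slc7a11, Gclc and Nqo1 both triangles (number 3) lie above both circles (number 1), for G6pdx the points coincide, and for Srxn1 control 3 is lowest and knockout 3 highest.

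None of the NRF2 targets passed the test between knockout and control macrophages. The quasi-likelihood test of edgeR, with adjustment over all 17260 genes, called 0 of the 10 (adjusted p = 0.99995 for each, n = 2 per group). It called 0% of all genes, and 391 genes (2.27%) but none of the 10 had an unadjusted p under 0.05. DESeq2 called 0.295% of the genes it tested and again none of the 10. The groups overlapped for each of the 10, whereas 13.1% of the tested genes had the knockouts wholly above the controls and 13.4% wholly below. The median log2 fold change of the 10 was -0.11, with 4 above 0 and 6 below, and it was -0.16 within number 1 and -0.08 within number 3. The sign was the same within both numbers for 6 of the 10 and for 53% of all tested genes. The median over all tested genes was -0.00132. The median of absolute changes was 0.19 for the 10 and 0.20 for all genes. All 9 fibroblast markers had a fold change below 0 between genotypes (median -0.53), as had 8657 of all 17260 tested genes. For 0 of the 9 did both knockouts lie below both controls, and 0 had an unadjusted edgeR p under 0.05. The part of the fibroblast markers in the values of the 10 genes was not tested.

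Hmox1 (chromosome 8, 75093621 to 75100589), the inducible heme oxygenase that opens the heme ring to biliverdin, carbon monoxide and iron, was abundant in every library. It measured 940.7 (control 1), 804.0 (control 3), 1014 (knockout 1) and 926.8 CPM (knockout 3). The knockout was the higher library within each number, but control 1 lay above knockout 3. On the log2 scale the knockouts differed by 0.15 ± 0.19 (SE, with 2 libraries a group; edgeR unadjusted p = 0.454), with 0.11 within number 1 and 0.21 within number 3.

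Nqo1 (chromosome 8, 107388225 to 107403206), which reduces quinones in a step that avoids semiquinone radicals, was the rarest. Its counts were 187, 602, 193 and 383 in controls 1 and 3 and knockouts 1 and 3, or 3.44, 9.72, 3.09 and 4.84 CPM. Control 3 stood apart at the top, and the other 3 lay close together. The log2 fold change of -0.73 ± 0.60 (edgeR unadjusted p = 0.284) came from -0.16 within number 1 and -1.002 within number 3, and it turned to 0.21 without control 3.

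Glutathione is made from cysteine, which enters as cystine through the exchanger Slc7a11, and from glutamate and glycine. Slc7a11 (chromosome 3, 49892526 to 50443614) measured 182.7 (control 1), 259.6 (control 3), 145.1 (knockout 1) and 275.5 CPM (knockout 3). The highest and the lowest library were both knockouts. Gclc (chromosome 9, 77754535 to 77794485) is the catalytic subunit of glutamate-cysteine ligase, the rate-limiting enzyme of the path, and measured 30.8 (control 1), 48.6 (control 3), 27.0 (knockout 1) and 41.3 CPM (knockout 3). Gclm (chromosome 3, 122245557 to 122270732) encodes the subunit that modifies its activity. It measured 90.0 (control 1), 318.5 (control 3), 58.6 (knockout 1) and 146.1 CPM (knockout 3). The knockout was the lower library within each number for both subunits, by 0.19 and 0.24 (log2) for Gclc and by 0.62 and 1.12 for Gclm. Gclm differed by -0.996 ± 0.75 (log2, SE; edgeR unadjusted p = 0.244), and knockout 3 lay above control 1. The Gclm fold change turned to 0.19 when control 3 was left out, a fit in which the number mixes with the genotype. With the library number as a block, Gclm differed by -0.87 (edgeR unadjusted p = 0.00591, adjusted p = 0.829), and it was not called. Gclm was picked from the 10 after its p in that fit was seen. The share of all genes with an unadjusted p under 0.05 in that fit is not given here. Gclm overlaps Gm17494 on the opposite strand, which had 6700, 3951, 7005 and 4109 counts in the same order of libraries, beside 4887, 19722, 3665 and 11564 for Gclm. Whether counting used the strand is not stated in the sources.

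In the thioredoxin path, Txnrd1 reduces thioredoxin with NADPH, Prdx1 spends such electrons to remove peroxides, and Srxn1 restores peroxiredoxin that peroxide has overoxidised. Txnrd1 (chromosome 10, 82833951 to 82897712) measured 199.9 (control 1), 392.4 (control 3), 200.003 (knockout 1) and 333.1 CPM (knockout 3). Prdx1 (chromosome 4, 116685544 to 116700822) measured 1043 (control 1), 2167 (control 3), 1060 (knockout 1) and 2338 CPM (knockout 3). For both genes the same-numbered libraries of the 2 genotypes were close, with differences of 0.00105 and -0.24 (log2) for Txnrd1 and of 0.02 and 0.11 for Prdx1.

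Srxn1 (chromosome 2, 152105516 to 152109322) showed another order. It measured 93.0 (control 1), 35.2 (control 3), 83.6 (knockout 1) and 192.9 CPM (knockout 3). The libraries numbered 1 were alike, whereas those numbered 3 were the lowest and the highest. Knockout 3 was 5.47-fold above control 3, and 588 of the 17260 tested genes had a difference of at least that size within number 3. Within number 1 the knockout differed by -0.15 (log2). Pooled over numbers, Srxn1 differed by 1.11 ± 0.62 (log2, SE; edgeR unadjusted p = 0.142). It was 0.38 without knockout 3 and 1.98 without control 1, fits in which the number mixes with the genotype. With 1 library per genotype and number, the difference between the numbers has no test.

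G6pdx (chromosome X, 74409483 to 74429194), the first enzyme of the pentose phosphate path and a source of NADPH, hardly varied. It measured 341.2 (control 1), 317.0 (control 3), 336.6 (knockout 1) and 338.1 CPM (knockout 3), with a difference of 0.04 ± 0.15 on the log2 scale (SE, n = 2 per group; edgeR unadjusted p = 0.825). It overlaps Ikbkg on the opposite strand, which had 2674 to 4739 counts against 18533 to 26760 for G6pdx. Sqstm1 (chromosome 11, 50199366 to 50210827) encodes p62, an autophagy receptor that also binds KEAP1. It measured 408.5 (control 1), 908.7 (control 3), 346.9 (knockout 1) and 722.9 CPM (knockout 3). The knockout was lower by 0.24 within number 1 and by 0.33 within number 3, and the fold change of -0.30 ± 0.54 had an edgeR unadjusted p of 0.602.

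**Figure D2:**
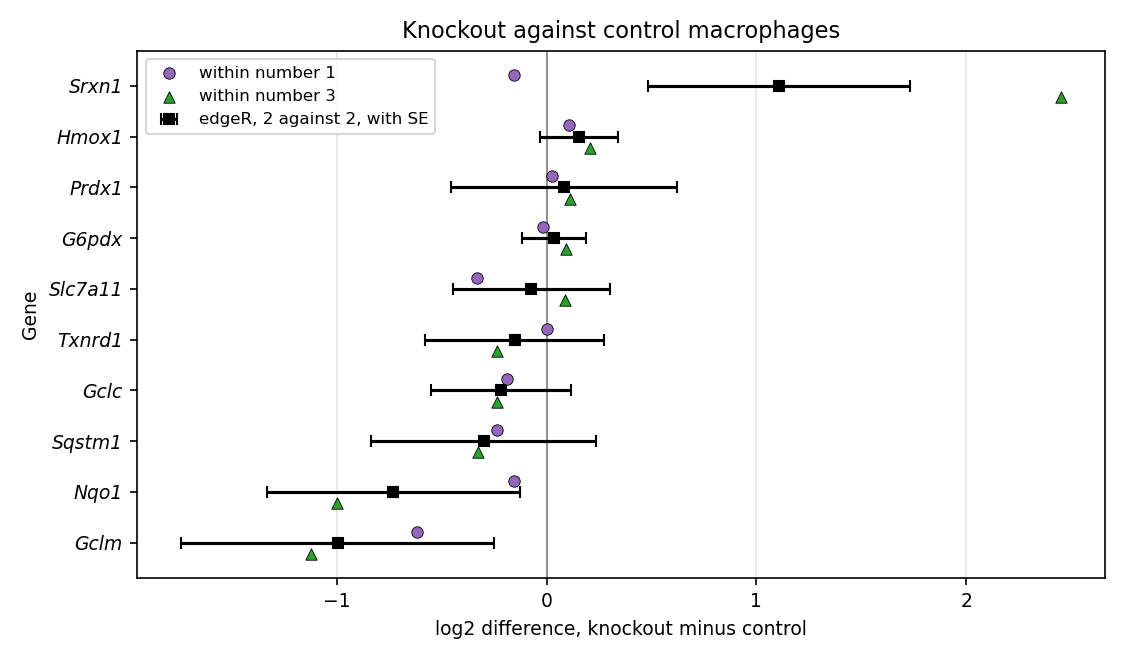
Log2 difference of knockout minus control for each of the 10 genes: the edgeR fold change with its SE (squares, 2 against 2 libraries) and the difference within number 1 (circles) and within number 3 (triangles). Srxn1 is near 0 within number 1 and at 2.45 within number 3, and Gclm and Nqo1 lie below 0 within both.

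The libraries were also compared by number, with the genotypes pooled. Prdx1 was 2.14-fold higher in the libraries numbered 3 (log2 fold change 1.10 ± 0.12, SE, n = 2 per number; edgeR adjusted p = 0.0419). It was the 1 gene of the 10 called by edgeR, which called 1.03% of all genes and 0.55% as higher in number 3. Both libraries numbered 3 lay above both numbered 1 for 7 of the 10 genes, or 70%, against 26.2% of all tested genes. The 7 were Prdx1, Sqstm1, Txnrd1, Gclm, Slc7a11, Gclc and Nqo1, and each had an unadjusted edgeR p under 0.05, as had 18.2% of all genes. Their log2 fold changes ran from 0.64 for Gclc to 1.64 for Gclm, a 1.56-fold and a 3.13-fold difference. The median of the 10 was 0.78, with 0.82 within the controls and 0.83 within the knockouts, against -0.00164 over all tested genes.

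The size of the difference by gene was similar in controls and knockouts for some genes and not for others. Prdx1 differed by 1.06 (log2) between control 3 and control 1 and by 1.14 between knockout 3 and knockout 1, Sqstm1 by 1.15 and 1.06, and Gclc by 0.66 and 0.61. Txnrd1 differed by 0.97 and 0.74, Slc7a11 by 0.51 and 0.93, Gclm by 1.82 and 1.32, and Nqo1 by 1.49 and 0.64. Whether these pairs of values differ could not be tested, since each cell of genotype and number is 1 library. Srxn1 differed by -1.40 among controls and by 1.21 among knockouts, and its pooled value of 0.37 ± 0.75 says little about either. Hmox1 and G6pdx had pooled values below 0. Hmox1 was lower in both libraries numbered 3, as were 25.2% of all tested genes, by 0.23 in controls and by 0.13 in knockouts (log2 fold change -0.18 ± 0.13; edgeR unadjusted p = 0.248). G6pdx, the X-linked gene of the set, differed by -0.11 and 0.00647.

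The call of Prdx1 depended on the test. The adjusted p of Prdx1 was 0.0646 in edgeR with genotype as a covariate. Over the 10 settings other than the main fit, which used edgeR, DESeq2 or limma, it ran from 1.48e-10 (DESeq2) to 0.173. With 1 library left out, the log2 fold change of Prdx1 was 1.05 to 1.16. DESeq2 called 6 of the 10 genes (Gclm, Gclc, Txnrd1, Slc7a11, Prdx1 and Sqstm1, all higher in number 3), where it called 6.27% of the genes it tested, and 2.91% as higher. Of the 9 fibroblast markers edgeR called 1 between numbers, Postn (log2 fold change 2.296; adjusted p = 0.0166). For 7 of the 9, Col1a1 and Col1a2 among them, both libraries numbered 3 lay above both numbered 1. That is 77.8%, beside 70% of the 10 NRF2 targets and 26.2% of all tested genes. For Col3a1 (-0.47) and Lum (-1.65) both libraries numbered 3 lay below. The median of the fibroblast list was 0.95. Macrophage markers had a median of -0.10, with 3 values above 0 and 6 below, and edgeR called 0 of the 9. The macrophage markers with the highest FPKM, Lyz2 and Adgre1, had log2 fold changes of 0.49 and 0.35. For both, the libraries numbered 3 lay above those numbered 1. DESeq2 called 2 of the 9, Mrc1 (-0.85 in edgeR, DESeq2 adjusted p = 6.79e-06) and Cd68 (0.70 in edgeR, DESeq2 adjusted p = 0.0104). Itgam measured 3171 (control 1), 884.5 (control 3), 2669 (knockout 1) and 2119 CPM (knockout 3). These markers were named after their values were seen, and their part in the difference of the NRF2 targets was not tested.

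**Figure D3:**
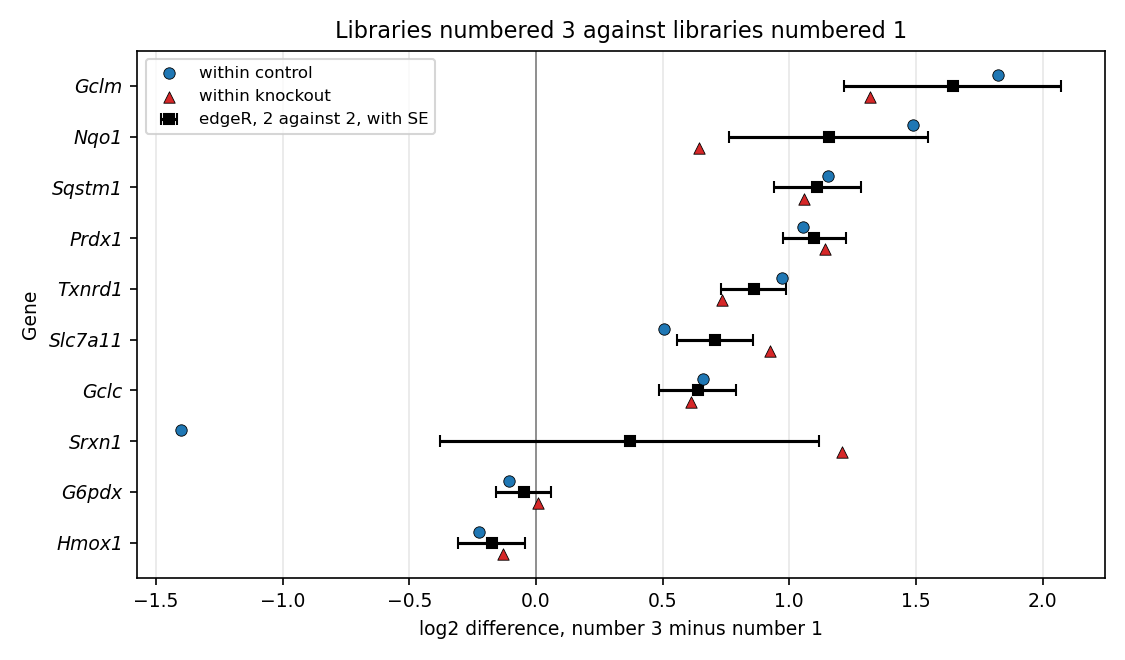
Log2 difference of the libraries numbered 3 minus those numbered 1 for each of the 10 genes: the edgeR fold change with its SE (squares, 2 against 2 libraries), the difference within controls (circles) and within knockouts (triangles). For 7 genes all 3 marks lie above 0, while the 2 marks of Srxn1 lie on opposite sides at -1.40 and 1.21.

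The genes of NRF2 itself and of its partners were examined next. Nfe2l2 measured 445.9 (control 1), 386.0 (control 3), 373.6 (knockout 1) and 490.3 CPM (knockout 3). Its log2 fold change was 0.05 ± 0.21 between genotypes and 0.10 between numbers. Keap1 measured 54.3 (control 1), 44.6 (control 3), 58.6 (knockout 1) and 57.5 CPM (knockout 3), the 2 knockouts above the 2 controls (0.23 ± 0.17; edgeR unadjusted p = 0.240). Bach1 measured 166.8 (control 1), 190.1 (control 3), 171.1 (knockout 1) and 182.8 CPM (knockout 3), a log2 difference of -0.01. Of the 12 regulators none was called between genotypes by edgeR, and their median was 0.00660. Between numbers the median was 0.20, and the small MAF genes Mafg and Mafk had log2 fold changes of 0.86 and 0.68 (edgeR adjusted p = 0.0619 and 0.0901), chosen after their values were seen. DESeq2 called both as higher in number 3 (DESeq2 adjusted p = 2.72e-05 and 0.00428) and no other of the 12.

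Of the 108 tested genes in 10 lists of related pathways, edgeR called 0 between genotypes, and 1 had an unadjusted p under 0.05. Medians of the lists ran from -0.19 for the autophagy receptors to 0.02 for quinone and carbonyl detoxification. Between numbers edgeR called 1 of the 108, Slc3a2, and 45 (41.7%) had both libraries numbered 3 above both numbered 1, against 26.2% of all genes. DESeq2 called 15 of the 108 as higher in number 3 and 7 as lower. Of all genes it tested, it called 6.27% in either direction and 2.91% as higher. Slc3a2 is the heavy chain that carries Slc7a11 to the membrane. Its level went from 219.1 and 202.6 CPM in the libraries numbered 1 to 509.1 and 462.1 CPM in those numbered 3 (log2 fold change 1.20; edgeR adjusted p = 0.0374).

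The glutathione synthesis and reduction list held values on both sides of 0. Gpx1, which reduces hydrogen peroxide, measured 403.0 (control 1), 295.6 (control 3), 495.1 (knockout 1) and 215.4 CPM (knockout 3). Over the whole list, Gpx1 and Slc3a2 included, 7 of 11 lay above 0 between numbers (median 0.22). Of the glutathione transferases and exporters 4 of 8 lay above 0 (median -0.06), and the abundant Mgst1 and Gstm1 had log2 fold changes of 0.09 and 0.39. In the thioredoxin and peroxiredoxin list 6 of 12 lay above 0 (median -0.00284). There Prdx5 and Txn1 had log2 fold changes of 0.13 and 0.44.

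The pentose phosphate and NADPH list had 5 of 9 genes above 0 between numbers (median 0.06). Taldo1, the transaldolase of that path, measured 193.0 (control 1), 362.2 (control 3), 185.7 (knockout 1) and 274.9 CPM (knockout 3). Nadk, which makes NADP, had a log2 fold change of 0.06. In the heme and iron list 12 of 19 lay above 0 (median 0.28), led in level by the ferritin chains. Fth1 measured 15686 (control 1), 22354 (control 3), 13549 (knockout 1) and 13206 CPM (knockout 3), with -0.51 ± 0.29 between genotypes (SE, n = 2 per group; edgeR unadjusted p = 0.148). Ftl1 measured 3032 (control 1), 4721 (control 3), 2920 (knockout 1) and 3747 CPM (knockout 3).

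Genes that produce or remove superoxide had a median of 0.18 between numbers, and the oxidase subunits Cybb and Cyba had log2 fold changes of 0.15 and 0.22. The median was -0.09 for quinone and carbonyl detoxification, with 3 of 8 above 0. Its most abundant members Ptgr1 and Akr1b8 had 0.34 and 0.57. Autophagy receptors and Atg8 proteins had a median of -0.01, with 0.07 for Gabarap and 0.18 for Gabarapl1, beside 1.11 for Sqstm1. The ATF4 list, which holds amino acid stress genes and whose factor also acts on Slc7a11, had a median of 0.95, 7 of 10 genes above 0, and values of 1.05 for Atf4 and 0.85 for Atf3. Within controls its median was 1.27 and within knockouts 0.18.

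**Figure D4:**
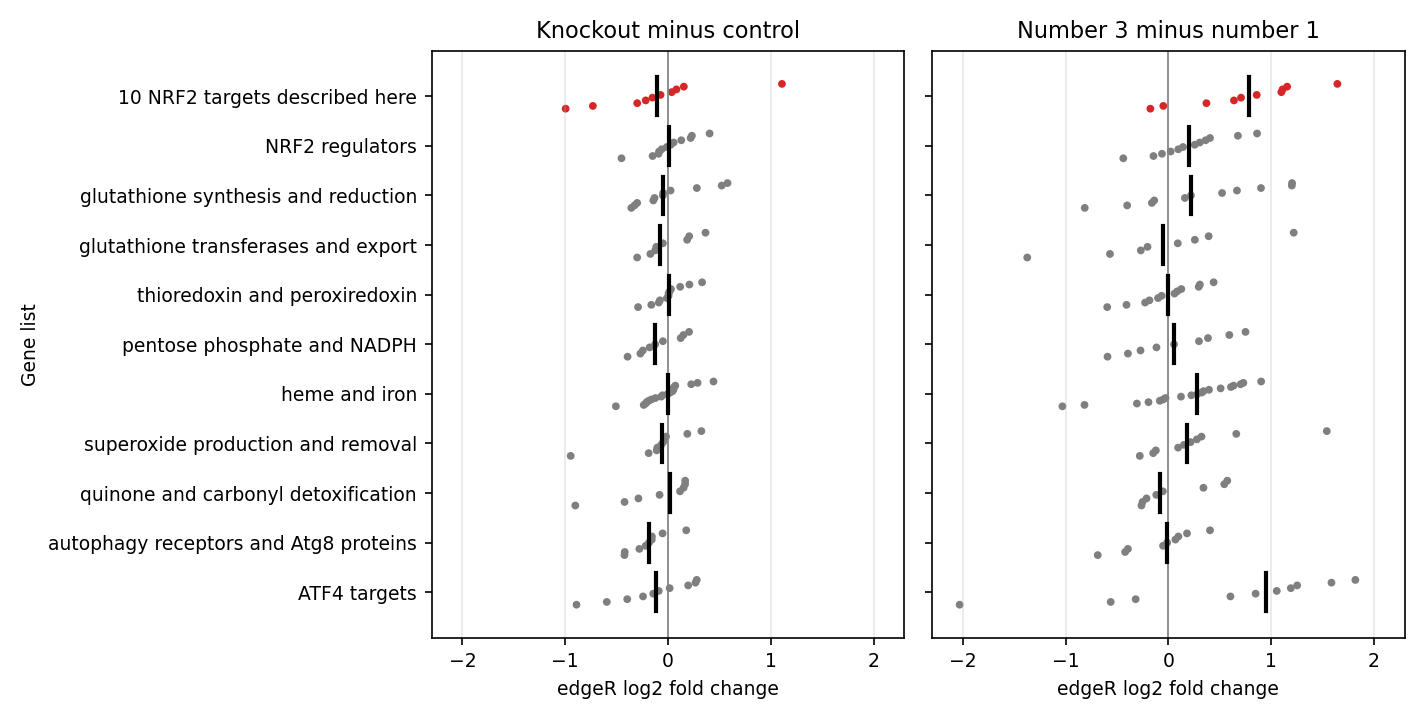
The edgeR log2 fold change of every tested gene in the 10 NRF2 targets (red) and in 10 related lists (grey), for knockout minus control on the left and number 3 minus number 1 on the right. Bars mark medians. On the left all medians lie between -0.19 and 0.02, and on the right the NRF2 targets (0.78) and the ATF4 list (0.95) have the highest medians.

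The level profile of the 10 genes over the 4 libraries, taken as the median of their centred log2 CPM, was -0.33 and 0.47 in controls 1 and 3 and -0.48 and 0.27 in knockouts 1 and 3. Among 104 genes of the related lists, Mafg was nearest to it, with a root mean square difference of 0.05 (log2). Taldo1 (0.08) and Alas1 (0.10), the first enzyme of heme synthesis, came next. This is a likeness over 4 libraries only and describes these samples.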

How the data were processed

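The authors deposited 1 table with a whole-number count and an FPKM value for each gene and library, per the file headers. The deposited counts were not scaled, and the deposited FPKM values, scaled by the authors for length and library size, write 0.0001 where the count is 0. The submitters' processing notes list StringTie 1.3.4d, HISAT2 2.0.4, cutadapt 1.9, edgeR and DESeq2 without their roles. No genome build or strand setting was stated there. GENCODE M21 shared 55141 identifiers with the table, 94.2% of them at the same start and end, as were 9 of the 10 genes. A further 4 value columns matched no sample and were not used.

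Counts were tested with edgeR 4.0.16 (quasi-likelihood, TMM, filterByExpr, two-sided, Benjamini-Hochberg, threshold 0.05) over 17260 genes in R 4.3.3, once by genotype and once by library number. Within-number differences use log2 CPM with a prior count of 2. Each standard error is the absolute fold change divided by the square root of F. Alternatives used DESeq2 1.42.0 and limma 3.58.1. The tests were tried on simulated counts. P-values rest on 2 libraries per group and set each difference against the spread between these samples, as each method estimates it.

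The genes and lists were chosen with earlier results of these data known. The text names all 10 genes, Nfe2l2, Keap1 and Bach1, up to 4 genes called between genotypes or else the 2 with the highest FPKM of each other pathway list, and the 3 nearest in profile. Names outside this rule are marked.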

Additional observations from a re-analysis of the deposited data

Results flagged for a closer look

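For 4 of the 10 genes the knockout lay above the control within 1 library number and below it within the other. Each value is 1 library against 1, and the difference between the numbers was not tested. Srxn1 differed by -0.15 (log2 CPM, knockout minus control) within number 1 and by 2.45 within number 3. Slc7a11 differed by -0.33 and 0.0855, Txnrd1 by 0.00105 and -0.24, and G6pdx by -0.0197 and 0.0930. Over all tested genes the signs within the 2 numbers were the same for 53.0%, and for the 10 genes they were the same for 6.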

How the results depend on the processing

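Between genotypes, 0 genes were called by edgeR and limma under every setting run and 74 by DESeq2, and none of the 10 NRF2 targets was called by any. With 1 library left out, their median ran from -0.58 (without knockout 3) to 0.21 (without control 3), since the number then mixes with the genotype. Over all fits without 1 library, the log2 fold change of Nqo1 ran from -1.28 to 0.21 and of Gclm from -1.80 to 0.19. In those fits Gclc ran from -0.56 to 0.15, Txnrd1 from -0.57 to 0.42 and Slc7a11 from -0.61 to 0.33. Prdx1 ran from -0.60 to 0.71, Sqstm1 from -0.93 to 0.39 and G6pdx from -0.0128 to 0.0971. With the library number as a replicate block, 0 genes were called and the median was -0.12. Gclm had an unadjusted edgeR p of 0.00591 in that fit in place of 0.244 (adjusted p = 0.829). It was picked from the 10 after that p was seen, and the share of all genes under 0.05 in that fit is not given here. Xist and Ddx3y separated the numbers in both genotypes, and deviations of same-numbered libraries from their group means correlated at 0.419. The number is thus a factor that both genotypes share. The main test, without the block, leaves the difference between numbers in its spread. With 2 pairs, and no label that says what a number marks, a shared litter, day or animal is not established.

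Between numbers, edgeR called 177 genes, and 375 without a low count filter, 323 in its bias-adjusted form and 1 to 87 with 1 library left out. DESeq2 called 1572 of 25066 genes (6.27%), and limma on FPKM 102 with either pseudocount and 9 without a filter. Of the 10 genes, 3 were called without a filter, 2 in the bias-adjusted form, 6 by DESeq2, and 0 by limma, with genotype as a covariate or with any 1 library left out. Their median was 0.804 with total counts, 0.794 without a filter, 0.742 with limma (pseudocount 1) and 0.716 to 0.879 with 1 library left out. Srxn1 turned to -0.0640 and -0.0834 with limma (pseudocounts 1 and 0.1), to -0.0923 with genotype as a covariate, and to between -1.32 and 1.13 with 1 library left out. G6pdx ran from -0.0942 to 0.00263 in those fits. The cause of these shifts was not tested.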

Other observations

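In the quinone and carbonyl detoxification list, Cbr1, a carbonyl reductase, measured 19.8 (control 1), 18.4 (control 3), 10.045 (knockout 1) and 10.4 CPM (knockout 3). It was the 1 gene of the related lists with an unadjusted edgeR p under 0.05 (log2 fold change -0.90 ± 0.20, SE, n = 2 per group; edgeR unadjusted p = 0.00824), and it was not called after adjustment (edgeR adjusted p = 0.99995). It was named after its values were seen. Of the 9 autophagy receptors and Atg8 proteins, 8 had a fold change below 0 between genotypes, as had 8657 of all 17260 tested genes. For 5 of the 9 both knockouts lay below both controls, beside 13.4% of all tested genes. This list was picked after its values were seen, and 0 of its 9 genes had an unadjusted edgeR p under 0.05. Their median was -0.19 within number 1 and -0.17 within number 3.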
